A study of Mus musculus with 6 samples.

Results

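The genes studied here were Fgf21, Klb, Fgfr4, Fst, Inhbe, Inhbc, Ahsg, Fetub, Lect2 and Gdf15, taken by gene symbol, and all 10 were found among the 16123 genes of the deposited expression table. They encode secreted liver proteins linked to exercise, called hepatokines, and the receptor proteins through which FGF21 and its relatives signal. Liver RNA of healthy adult mice was read in 6 libraries, in 2 groups of 3. The exercise mice ran on a treadmill for 6 weeks, 22 km per mouse, and their livers were collected 24 h after the last session. The sedentary mice had no treadmill training. Livers were perfused with phosphate buffered saline, and RNA was TRIzol-extracted and read in pairs on a DNBseq instrument. The sources used here do not state strain, sex or exact age. The design text speaks of 3 mice in each group, but the libraries of a group were very close to each other (common biological coefficient of variation 1.84%), and the files do not show whether they are separate mice or technical repeats. Each SD, n and p-value therefore measures the spread between these libraries alone, which may be technical.

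FGF21 is a hormone that the liver releases in fasting, amino acid shortage and other metabolic stress. It binds beta-Klotho (Klb) together with an FGF receptor on target cells, while hepatocytes use beta-Klotho with FGFR4 to read the gut hormone FGF15, which lowers bile acid synthesis. Follistatin (Fst) is a secreted protein that traps activins. Inhbe and Inhbc encode the activin subunits beta E and beta C, which are made mainly in hepatocytes. Fetuin-A (Ahsg) and fetuin-B (Fetub) are plasma proteins of the cystatin superfamily. LECT2 is a secreted chemotactic factor of hepatocytes, and GDF15 is a stress hormone that acts on a brainstem receptor.

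Across the 10 genes, 4 rose and 3 fell in the exercise libraries, and 3 did not pass the test. Fgf21, Inhbc, Inhbe and Klb rose, Fetub, Ahsg and Lect2 fell, and Fst, Fgfr4 and Gdf15 did not pass. The test was edgeR's quasi-likelihood test on TMM-scaled counts with Benjamini-Hochberg adjustment over 10266 genes whose FPKM averaged at least 1 across the libraries, at an adjusted p under 0.05. All 10 passed that filter on low values, Fgf21 only through the exercise libraries, since its sedentary mean was under 1 FPKM. Over all tested genes 38.1% were called, 19.1% higher and 19.0% lower, beside 7 of these 10. The median log2 fold change was 0.03 over the 10 genes and 0.00 over all tested genes. By the deposited FPKM, which is a level per transcript length, 8 of the 10 genes had groups with no overlap, 4 higher and 4 lower, against 51.0% of all tested genes (36.6% higher and 14.3% lower). Against a threshold of 1.2-fold, Fgf21, Inhbc, Inhbe and Fetub were still called, where 6.36% of all tested genes were (2.33% higher and 4.03% lower).

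**Figure D1:**
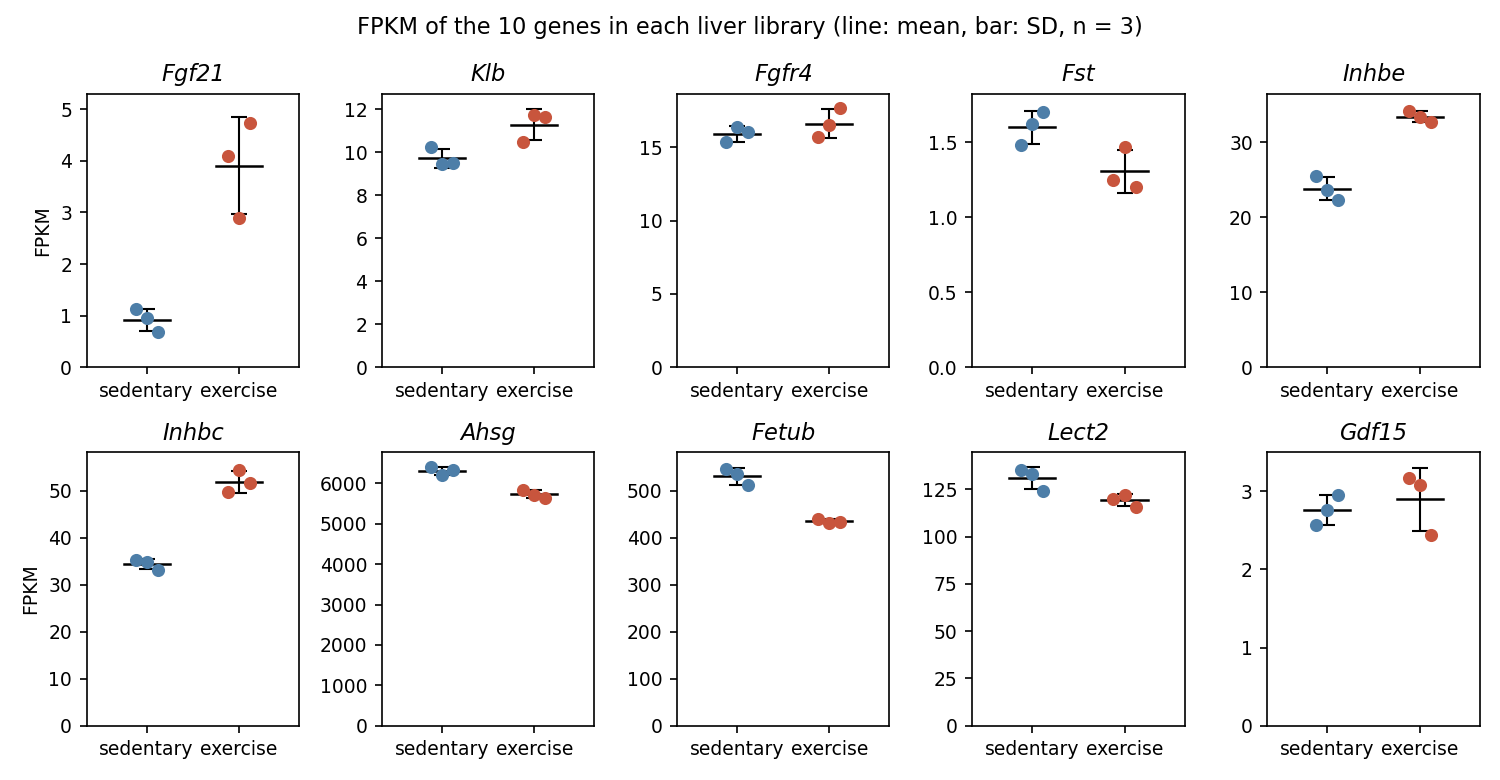
Deposited FPKM (vertical axis, from 0) of each gene in the 3 sedentary (blue) and 3 exercise (red) libraries, with the mean as a line and the SD as a bar. Fgf21 lies between 0.69 and 1.12 in the sedentary and between 2.89 and 4.74 in the exercise libraries, and the groups overlap for Fgfr4 and Gdf15.

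Library totals lay between 17941303 and 18371949 counts. Of 15 hepatocyte markers 14 were analysed and all 14 were tested, 9 of them higher and 3 lower, with summed counts of 2312530 to 2366790 in the sedentary and 2381220 to 2390090 in the exercise libraries. Kupffer cell and macrophage markers summed to 11339 to 11620 counts in sedentary and 9225 to 9461 in exercise libraries, with 10 of 12 tested genes lower. Pancreatic acinar markers summed to 287 to 303 and 115 to 123 counts, of which Amy2a5 gave 53, 55 and 62 in sedentary and 0 in every exercise library. Of 29 tested acute phase genes 27 fell and none rose (median log2 fold change −0.72). Of all tested genes 19.0% fell and 19.1% rose. In bulk liver, fewer cells of a type and less RNA per cell cannot be told apart.

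Bases before the transcription start are shown for the 3 genes that rose most, Fgf21, Inhbe and Inhbc, because 2 of them share an 8-base element. The sequences are 250 bases each, on the minus strand and 5′ to 3′, from the RefSeq promoter table of GRCm38.p6, in which 9 of the 10 genes were found. The windows are chr7:45615491-45615740, chr10:127351849-127352098 and chr10:127370549-127370798. Capitals mark matches to TGATGNAA, the core of the C/EBP-ATF composite element that ATF4 binds in genes of the amino acid response, searched on both strands.
Fgf21: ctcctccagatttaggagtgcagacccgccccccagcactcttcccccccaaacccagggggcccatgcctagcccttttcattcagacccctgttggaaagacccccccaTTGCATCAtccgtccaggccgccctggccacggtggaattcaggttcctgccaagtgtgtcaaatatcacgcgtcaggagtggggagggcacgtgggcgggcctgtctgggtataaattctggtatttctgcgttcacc
Inhbe: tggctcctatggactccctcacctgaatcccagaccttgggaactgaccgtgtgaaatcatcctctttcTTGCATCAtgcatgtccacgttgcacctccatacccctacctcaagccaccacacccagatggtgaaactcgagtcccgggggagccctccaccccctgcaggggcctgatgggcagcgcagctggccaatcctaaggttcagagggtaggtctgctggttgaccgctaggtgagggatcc
Inhbc: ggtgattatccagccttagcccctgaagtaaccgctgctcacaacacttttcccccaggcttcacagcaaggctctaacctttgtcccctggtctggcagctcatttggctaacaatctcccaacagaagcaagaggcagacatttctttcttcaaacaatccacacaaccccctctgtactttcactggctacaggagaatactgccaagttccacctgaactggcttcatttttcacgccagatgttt

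The run TTGCATCA, which matches that core on the opposite strand, begins 139 bases before the start of Fgf21 and 181 bases before that of Inhbe. Among the RefSeq promoter windows of the same length, 3.45% hold such a match (1134 of 32851). The window of Inhbc has no such match, and neither has that of any of the other 6 genes with a window. Fgf21 also holds a CACGTG E-box 50 bases before its start (6.02% of windows have one) and a TATAAA box 28 bases before it (12.4% of windows). Neither is particular to Fgf21 among the 10 genes. A window of Gdf15 holds CACGTG 83 bases before its start, and a window of Fetub holds TATAAA 31 bases before its start. None of the windows found for the 10 genes holds AGGTCANAGGTCA, a direct repeat read by PPAR-alpha and related receptors, which is in 0.0335% of windows. The longer form TGATGNAAT, which contains the shorter one, is in 0.816% of windows and, among the 10 genes, only in that of Fgf21. Of 198 tested genes with a match 17.7% rose and 21.2% fell, beside 19.1% and 18.7% of the 8323 tested genes with a window.

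Fgf21 had the largest change of the 10 genes. Its counts were 13, 11 and 8 in the sedentary libraries and 47, 33 and 55 in the exercise libraries. All 3 exercise libraries lay above all 3 sedentary ones. The mean level went from 0.920 ± 0.217 to 3.91 ± 0.939 FPKM (SD, n = 3). Fgf21 rose 4.02-fold by TMM-scaled counts (log2 fold change 2.01, SE 0.27, edgeR adjusted p = 2.08e-08), which ranked 5 among the 10266 tested genes. It is among them only through its exercise libraries. With no filter on low genes the log2 fold change was 2.02 (edgeR adjusted p = 1.56e-06). The gene (gene ID 56636, chromosome 7, 45613890 to 45615490 in GRCm38.p6, minus strand) was a low transcript, ranked 8479 of 10266 by mean FPKM over the 6 libraries. The variance of its counts was 2.76 times their mean among the exercise libraries and 0.594 times their mean among the sedentary ones. The log2 fold change stayed between 1.84 and 2.18 with any 1 library left out. On the log2(FPKM + 1) scale, which understates low genes, it was 1.34. Pancreatic acinar markers were lower in every exercise library, and their part in the Fgf21 values was not tested.

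Klb, which encodes the co-receptor beta-Klotho, rose slightly. Its FPKM values were 10.2, 9.45 and 9.49 in the sedentary and 10.5, 11.8 and 11.6 in the exercise libraries. The groups did not overlap, but the nearest libraries, sedentary replicate 1 and exercise replicate 1, were close. Klb (gene ID 83379, chromosome 5, 65348411 to 65386957, plus strand) had a log2 fold change of 0.16 (SE 0.05, edgeR adjusted p = 0.00513). Without exercise replicate 2 it was 0.13 and did not pass (adjusted p = 0.0524).

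Fgfr4, the main FGF receptor of hepatocytes, was at 15.33, 16.38 and 16.02 FPKM in sedentary and 15.69, 16.49 and 17.66 FPKM in exercise libraries. These values overlap. The log2 fold change was −0.03 (SE 0.05, edgeR adjusted p = 0.62), and its interval of 2 standard errors ran from −0.12 to 0.06. The sign of this small value turned with the scaling. Within each library, the ratio of Klb to Fgfr4 FPKM was 0.612 ± 0.0487 in sedentary and 0.680 ± 0.0289 in exercise libraries (SD, n = 3), with overlapping groups (exact permutation p = 0.2, two-sided, and 0.333 adjusted over the 5 ratios). The ratio of Fgf21 to Klb FPKM went from 0.0942 ± 0.0191 to 0.348 ± 0.0886 (SD, n = 3). Its groups did not overlap (exact permutation p = 0.1, two-sided, the smallest that 3 against 3 allows, and 0.25 adjusted over the 5 ratios computed).

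The other FGF receptor genes moved apart. Fgfr1, the receptor through which FGF21 mainly acts in fat, had 3.25, 2.86 and 2.89 FPKM in sedentary and 2.02, 1.98 and 1.67 FPKM in exercise libraries. Fgfr1 fell 1.69-fold (log2 fold change −0.76, SE 0.09, edgeR adjusted p = 1.02e-09). Cholangiocyte markers summed to 1721 to 1775 counts in sedentary and 1104 to 1156 in exercise libraries, with 1 of 3 tested genes lower. Neutrophil markers summed to 156 to 183 and 44 to 46 counts. Stellate and endothelial marker sums were higher in exercise libraries. The part of these cell types in the fall of Fgfr1 was not tested. Fgfr2 rose 1.32-fold, from 8.43, 7.53 and 7.22 FPKM to 10.9, 10.6 and 10.8 FPKM. Fgfr3 did not pass (log2 fold change −0.10, adjusted p = 0.0989), except as lower without sedentary replicate 2 (−0.14, adjusted p = 0.038). Of the 24 tested genes in the list of FGF receptors, adaptors and kinases, 4 rose, 3 fell and 17 did not pass. Of all tested genes 19.1% rose and 19.0% fell. The median of the list was −0.02. The number higher in the list depended on the fit. It was 9 with library totals without TMM, where 46.2% of all tested genes were called (34.4% higher and 11.7% lower), and 1 with DESeq2, where 24.5% were called (12.4% higher and 12.1% lower). Without exercise replicate 1 it was 2, where 17.0% of all tested genes were called higher.

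Feedback inhibitors and target genes of FGF signalling were measured as well, with 2 of 11 tested genes higher, 4 lower and a median of −0.20. Of all tested genes 19.1% were higher and 19.0% lower. Egr1, an immediate-early gene induced by ERK signalling, had counts of 495, 469 and 480 in sedentary and 180, 215 and 193 in exercise libraries, and fell 2.55-fold. Spry4 and Spred2, inhibitors of the same cascade, fell 1.28-fold and 1.39-fold, while Dusp6, a phosphatase that switches ERK off, rose 1.30-fold. Cyp7a1, which starts the making of bile acids and is repressed by FGF15 through FGFR4, had counts of 1393, 1515 and 1472 in sedentary and 720, 714 and 715 in exercise libraries, and fell 2.12-fold. Cyp8b1, another bile acid enzyme, rose 1.08-fold. Fap, the protease that inactivates circulating FGF21, was barely detected, with 2 to 5 counts in every library, and was not tested.

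Regulators of Fgf21 transcription were split. The median of 21 tested genes was 0.02, and 6 rose, 7 fell and 8 did not pass. Of all tested genes 19.1% rose and 19.0% fell. Among the stress regulators, Ddit3 (CHOP) had counts of 146, 131 and 134 in sedentary and 287, 284 and 308 in exercise libraries, and rose 2.06-fold. Atf4, the transcription factor of the integrated stress response, rose 1.31-fold and the stress kinase gene Eif2ak3 (PERK) rose 1.42-fold. Xbp1, a factor of the unfolded protein response, fell 1.27-fold. Of the metabolic regulators, Mlxipl (ChREBP), which senses carbohydrate, rose 1.26-fold and Nr1d1 (REV-ERB alpha), a clock repressor, rose 1.30-fold. For Ppara itself the change was 0.02 on the log2 scale (edgeR adjusted p = 0.587). It passed, as higher, only with library totals without TMM and with limma on FPKM or TPM. The partner factor gene Creb3l3 had a log2 fold change of −0.00 (edgeR adjusted p = 0.994), and it too was called higher in those other fits.

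Target genes of PPAR-alpha, the fatty acid receptor that induces Fgf21 in fasting, were higher in 21 of 27 tested genes and lower in 3, with a median of 0.28. Of all tested genes 19.1% were higher and 19.0% lower. Against a 1.2-fold change 8 of the 27 were still called higher, where 2.33% of all tested genes were. Cyp4a14 rose most (8.67-fold), followed by Cyp4a10 (3.11-fold), Plin4 (2.33-fold) and Acot1 (1.97-fold). Cyp4a genes are fatty acid omega-hydroxylases, Plin4 coats lipid droplets and Acot1 is a thioesterase. Ehhadh and Acaa1b, enzymes of peroxisomal oxidation, rose 1.52-fold and 1.58-fold. The counts of Cyp4a10, Acot1 and Acaa1b were not whole numbers, so their folds are uncertain where reads are shared with close relatives. Genes downstream of ATF4 were split, with 5 of 13 tested genes higher, 3 lower and a median of 0.12, beside the same 19.1% and 19.0%. Sesn2, a stress-induced inhibitor of mTORC1, rose 1.51-fold and Ppp1r15a, which restores translation, rose 1.26-fold. Asns (asparagine synthetase) fell 2.08-fold and Chac1, which degrades glutathione, fell 2.15-fold, each with non-overlapping groups. Atf3 was under the filter at 21, 20 and 23 counts in sedentary and 25, 28 and 38 counts in exercise libraries.

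**Figure D2:**
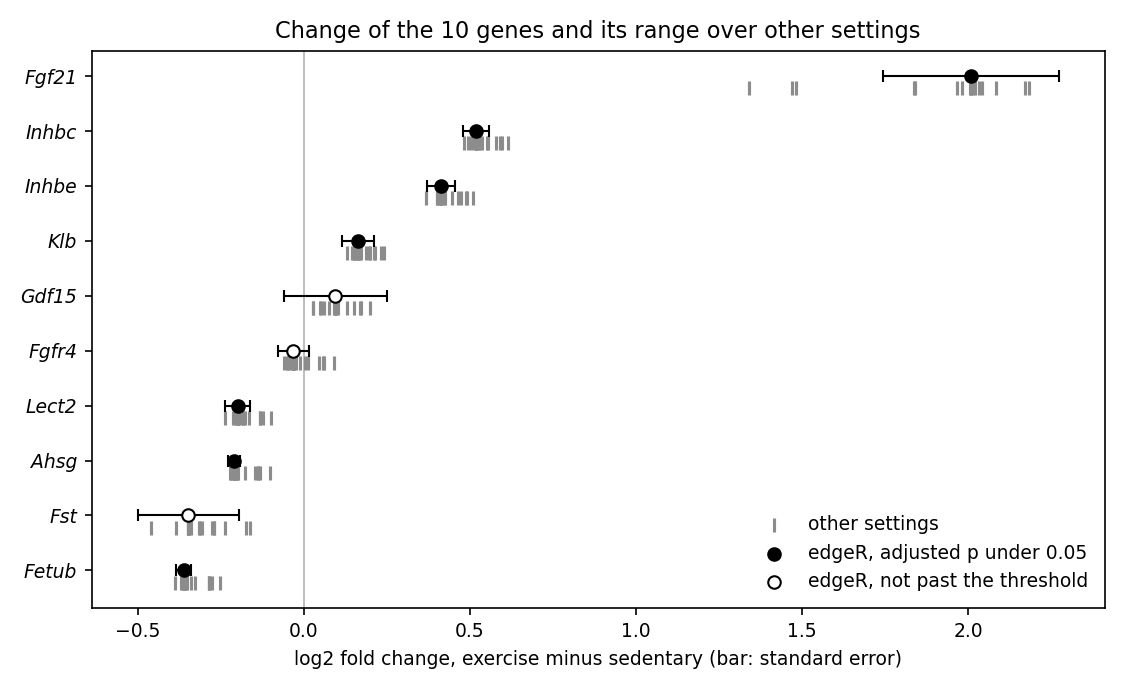
Log2 fold change of each gene, exercise minus sedentary, from edgeR (circles, bar: standard error, filled where the adjusted p is under 0.05), with the values of the other settings as grey ticks. Fgf21 stands alone at 2.01, Inhbc and Inhbe lie at 0.52 and 0.41, and Fetub is lowest at −0.36.

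The 2 liver activin subunits rose together. Inhbc had 35.2, 34.9 and 33.2 FPKM in the sedentary and 49.7, 54.4 and 51.6 FPKM in the exercise libraries. Inhbe had 25.45, 23.67 and 22.31 FPKM in the sedentary and 34.14, 33.36 and 32.65 FPKM in the exercise libraries. For both genes every exercise library was above every sedentary one, with a gap wider than the range within a group. Inhbc (gene ID 16325, chromosome 10, 127356322 to 127370548, minus strand) rose 1.43-fold (log2 fold change 0.52, SE 0.04, edgeR adjusted p = 1.3e-15). Inhbe (gene ID 16326, chromosome 10, 127349402 to 127351848, minus strand) rose 1.33-fold (log2 fold change 0.41, SE 0.04, edgeR adjusted p = 4.43e-11). The ratio of Inhbc to Inhbe FPKM was 1.45 ± 0.0571 in sedentary and 1.56 ± 0.0909 in exercise libraries (SD, n = 3), and the groups overlapped (exact permutation p = 0.3, two-sided, and 0.375 adjusted over the 5 ratios).

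These subunits are encoded next to each other, 4473 bases apart. Of the 8 genes tested within 100 kb of the pair, including the pair itself, 4 rose, none fell and 4 did not pass. Of all tested genes 19.1% rose and 19.0% fell. Ddit3, in the same stretch, rose most, and Mars, the methionyl-tRNA synthetase gene beside it, rose 1.09-fold. Ddit3 and Mars overlap at their ends, and the sources used here do not say whether reads were counted by strand. The nearest tested gene on the other side, R3hdm2, did not pass (log2 fold change −0.01, adjusted p = 0.903).

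Follistatin, the activin antagonist, pointed lower without passing the test. Fst (gene ID 14313, chromosome 13, 114452262 to 114458989) had counts of 64, 67 and 71 in sedentary and 53, 63 and 49 in exercise libraries. The groups did not overlap, but exercise replicate 2 was 1 count under the lowest sedentary library. The log2 fold change was −0.35 (SE 0.15, edgeR adjusted p = 0.0673), with an interval of 2 standard errors from −0.65 to −0.04. Without exercise replicate 2 it was −0.46 and passed (adjusted p = 0.0367), while DESeq2 gave an adjusted p of 0.25. The gene overlaps a non-coding RNA gene in RefSeq, whose reads could not be separated here.

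Other genes of activin signalling gave 6 higher, 3 lower and 11 not called of 20 tested, with a median of 0.06. Of all tested genes 19.1% were higher and 19.0% lower. With DESeq2 the list gave 2 higher and 1 lower (12.4% and 12.1% of all tested genes), and without TMM 10 and 1 (34.4% and 11.7%). Without sedentary replicate 1 only 1 gene of the list was lower, where 16.9% of all tested genes were called lower. Stellate cell markers moved in the same libraries, with summed counts of 4020 to 4132 in sedentary and 5008 to 5052 in exercise libraries and with 6 of 10 tested genes higher and 1 lower. Their part in these changes was not tested. Among ligand subunits, Inhba (beta A) rose 1.18-fold on counts of 218 and 267 in the mean, and did not pass with DESeq2 (adjusted p = 0.0893) or without exercise replicate 2 (0.0566). Inhbb (beta B) was under the filter and not tested, at counts of 16, 35 and 31 in sedentary and 36, 47 and 51 in exercise libraries. Inha, the inhibin alpha subunit, and Fstl3, a relative of follistatin, had 1 to 4 counts in every library. Among receptors, Acvr1b (ALK4), a type I activin receptor, had 3.90, 4.02 and 3.84 FPKM in sedentary and 2.63, 2.81 and 2.85 FPKM in exercise libraries, and fell by 0.58 on the log2 scale. Acvr2a, a type II receptor, did not pass (log2 fold change 0.15, adjusted p = 0.0632). Acvr2b was under the filter and not tested, at counts of 215, 216 and 208 in sedentary and 164, 161 and 146 in exercise libraries. Its mean FPKM was 1.14 in sedentary and 0.843 in exercise libraries, and the groups did not overlap. Acvr1c, proposed as a receptor for activin E, had 0 to 4 counts in every library. Of the signal transducers, Smad3 and Smad4 rose 1.19-fold and 1.18-fold, and the inhibitory Smad7 rose 1.28-fold.

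**Figure D3:**
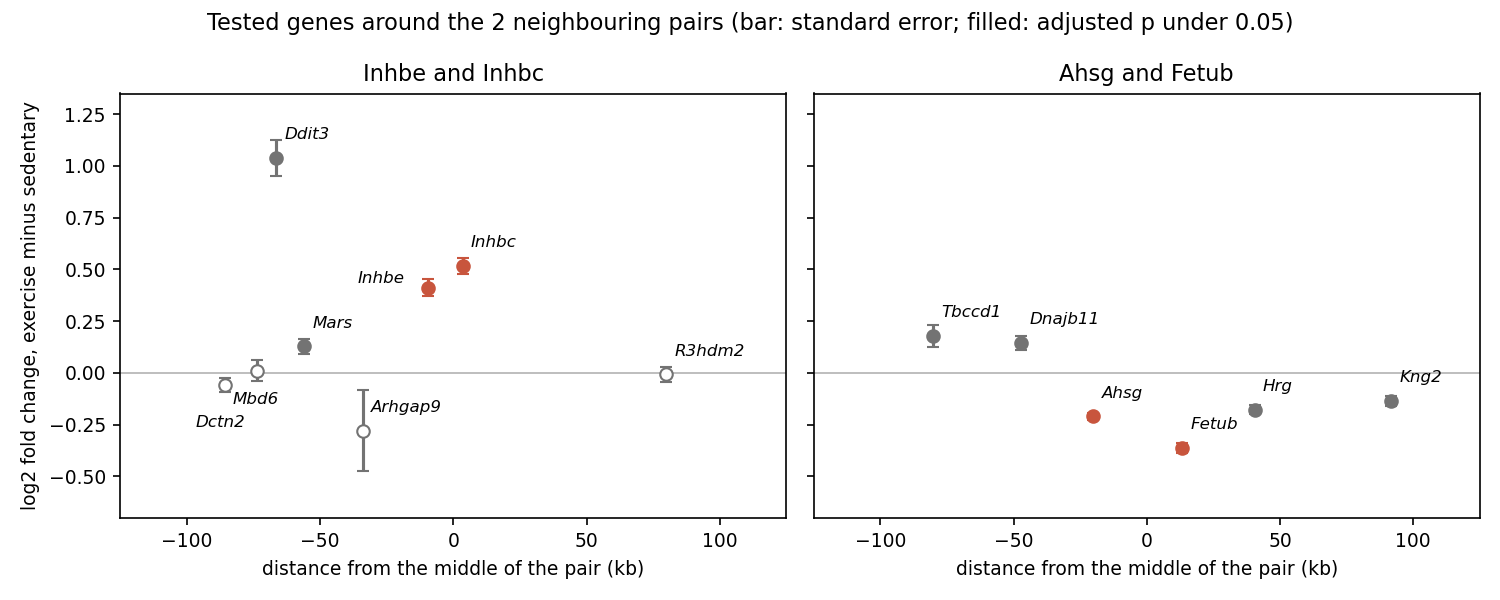
Log2 fold change (exercise minus sedentary, bar: standard error) of the tested genes within 100 kb of Inhbe and Inhbc (left) and of Ahsg and Fetub (right), by distance of each gene's middle from the middle of the pair. The paired genes are red and filled points have an adjusted p under 0.05. Inhbe and Inhbc lie at 0.41 and 0.52, and Ahsg, Fetub, Hrg and Kng2 all lie below 0.

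Both fetuin genes fell. Ahsg was at 6408, 6200 and 6329 FPKM in sedentary and 5850.5, 5718.6 and 5644.8 FPKM in exercise libraries, and ranked 20 of the 10266 tested genes by mean FPKM. Fetub was at 547, 535 and 511 FPKM in sedentary and 440, 432 and 434 FPKM in exercise libraries. The groups did not overlap for either gene. Fetub (gene ID 59083, chromosome 16, 22918382 to 22939768, plus strand) fell 1.29-fold (log2 fold change −0.36, SE 0.02, edgeR adjusted p = 1.34e-18). Ahsg (gene ID 11625, chromosome 16, 22892015 to 22899451, plus strand) fell 1.16-fold (log2 fold change −0.21, SE 0.02, edgeR adjusted p = 1.27e-14), or by 0.10 on the log2(TPM + 1) scale, where it still passed. Acute phase genes fell alongside, and Kupffer cell markers were lower in the same libraries. Their part in the fall of the fetuins and of Lect2 was not tested. The ratio of Fetub to Ahsg FPKM went from 0.0841 ± 0.00291 to 0.0759 ± 0.00088 (SD, n = 3) with no overlap (exact permutation p = 0.1, two-sided, the smallest possible, and 0.25 adjusted over the 5 ratios). Ahsg overlaps a non-coding RNA gene in RefSeq by 2372 bases.

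Relatives of the fetuins in the cystatin superfamily moved both ways. Ahsg and Fetub lie 18930 bases apart on chromosome 16, with Hrg and Kng2 downstream within 100 kb. Hrg, which encodes histidine-rich glycoprotein, had counts of 19060, 19105 and 18769 in sedentary and 17211, 17657 and 17495 in exercise libraries, and fell 1.13-fold. Kng1, the main kininogen gene, fell 1.16-fold and Kng2 fell 1.10-fold, although Kng2 did not pass on the FPKM and TPM scales or without TMM, and the counts of both kininogen genes were not whole numbers. The values of these closely related genes are uncertain, since reads they share could be split between them. Cst3 (cystatin C), a cysteine protease inhibitor, had counts of 1638, 1691 and 1699 in sedentary and 1932, 1955 and 1925 in exercise libraries, and rose 1.11-fold. Cstb (cystatin B) did not pass (log2 fold change 0.15, adjusted p = 0.0528). On the other flank of the fetuin pair Dnajb11, a chaperone of the endoplasmic reticulum, and Tbccd1 rose 1.11-fold and 1.13-fold. Of the 6 tested genes of that stretch, including the pair itself, 4 fell and 2 rose. Of all tested genes 19.0% fell and 19.1% rose. Over all 11 tested genes of the fetuin list, which holds these relatives and partners, 2 rose and 4 fell, with a median of −0.01. Insr, the insulin receptor that fetuin-A binds, did not pass (log2 fold change 0.01, adjusted p = 0.831), but was called higher without TMM (0.09, adjusted p = 0.0226) and with limma on log2(TPM + 1) (0.12, adjusted p = 0.049). Its substrates went opposite ways, Irs1 up 1.48-fold and Irs2 down 1.38-fold.

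Lect2 was, with Fetub and Ahsg, 1 of the 3 genes called lower among the 10. Lect2 (gene ID 16841, chromosome 13, 56529734 to 56548559, minus strand) had 135, 133 and 124 FPKM in sedentary and 120, 122 and 116 FPKM in exercise libraries. The groups were separate by a small gap. The log2 fold change was −0.20 (SE 0.04, edgeR adjusted p = 3.55e-05), and −0.10 on the log2(TPM + 1) scale, which missed the threshold (limma adjusted p = 0.0517). The gene overlaps Fbxl21 by 8165 bases in RefSeq, and the counts of both may share reads. The ratio of Lect2 to Ahsg FPKM was 0.0207 ± 0.001 and 0.0208 ± 0.000471 (SD, n = 3), with overlapping groups (exact permutation p = 1, two-sided). Of the receptors tied to LECT2, Met did not pass (log2 fold change −0.06, adjusted p = 0.28) and Tie1, an endothelial receptor, rose 1.15-fold (adjusted p = 0.0435). That call ended with DESeq2 (adjusted p = 0.181), without a filter on low genes (0.0624) and with 4 of the 6 libraries left out in turn. Tie1 moved beside liver endothelial markers, whose summed counts were 5608 to 5725 in sedentary and 6501 to 6718 in exercise libraries. Of the 10 tested markers 4 were called higher and 0 lower, beside 19.1% and 19.0% of all tested genes. By FPKM all 10 were higher with no overlap between the groups, where 36.6% of all tested genes were. The part of endothelial cells in the change of Tie1 was not tested.

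Gdf15 (gene ID 23886, chromosome 8, 70629393 to 70632470, minus strand) had counts of 52, 57 and 63 in sedentary and 70, 67 and 54 in exercise libraries, which overlap. The log2 fold change was 0.09 (SE 0.15, edgeR adjusted p = 0.667), with an interval of 2 standard errors from −0.22 to 0.40. A change of the size seen in Fgf21 lies outside that interval. Of 7 tested genes in the list of LECT2 and GDF15 partners, 2 rose and 1 fell, beside 19.1% and 19.0% of all tested genes. Cdkn1a, the p53-induced cell cycle inhibitor, fell 2.55-fold, from counts of 97.3 to 39.7 in the mean, while Mdm2, another p53 target, rose 1.15-fold. Gfral, the GDF15 receptor, was not analysed here.

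By mean FPKM the genes kept a wide and nearly fixed order in both groups. Ahsg was highest, followed by Fetub, Lect2, Inhbc, Inhbe, Fgfr4 and Klb, and no neighbours in that order overlapped in their libraries. Gdf15 (2.76 FPKM), Fst (1.48 to 1.70 FPKM) and Fgf21 (0.920 FPKM) were the lowest in the sedentary libraries. In exercise libraries Fgf21 stood above both, at 3.91 FPKM against 2.90 for Gdf15 and 1.31 for Fst. The libraries of Fgf21 and Gdf15 overlapped there, so these 2 neighbours are not separated by their spread. The order was the same by TPM.

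**Figure D4:**
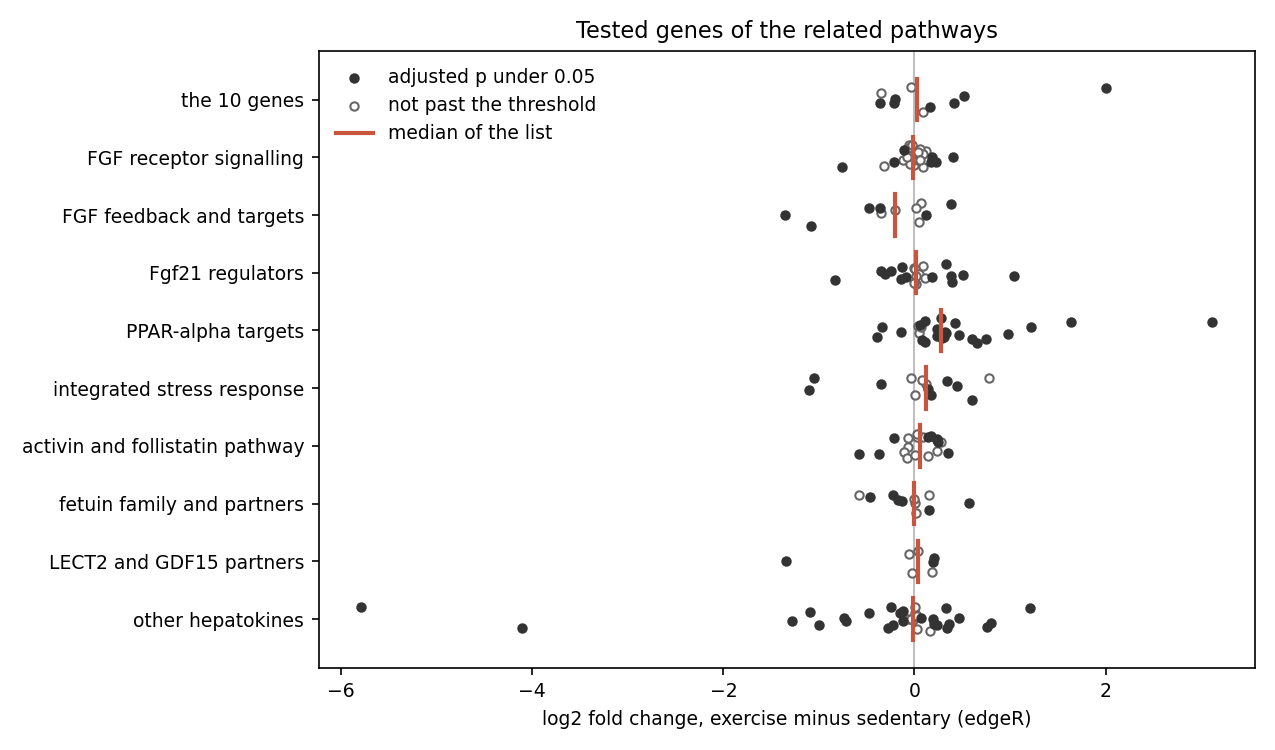
Log2 fold change (exercise minus sedentary, edgeR) of every tested gene in the 10 genes and in 9 lists of related pathways, each gene a point (filled: adjusted p under 0.05) and the list median a red line. The PPAR-alpha targets have the highest median, 0.28, and the FGF feedback and target genes the lowest, −0.20.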

How the data were processed

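RNA-seq of 6 liver libraries was analysed from a single table. Short and poor reads were dropped, per the labels' protocols. GRCm38.p6, cutadapt, featureCounts and MultiQC are named per the submitters' processing notes. Which aligner, annotation, strand setting and versions were used is not given in the sources used here. Per the file headers, the authors gave an estimated count, an FPKM and a TPM per gene and library. Counts with a fractional part in some library (tolerance 1e-06) occurred for 1165 of 16123 genes, none of them among the 10 genes. The authors' 6 columns of averages were not used. Columns were matched through the sample descriptions, and groups come from the treatment label.

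Counts were rounded and tested with edgeR 4.0.16 in R 4.3.3 (TMM scaling, quasi-likelihood F test, two-sided, no covariates) over the 10266 genes averaging at least 1 FPKM. P-values were Benjamini-Hochberg adjusted over these genes. Log2 fold changes use a prior count of 0.125, and standard errors were derived from the F statistic (absolute change over its square root). TMM factors were 0.972 to 0.977 in sedentary and 1.03 in exercise libraries, so folds from counts differ from ratios of FPKM means. Ratios within a library were compared with an exact permutation test. The fit was tested on simulated data with known changes. Alternatives were other scalings, filters on low genes, DESeq2 1.42.0, a test against a 1.2-fold change, limma 3.58.1 on FPKM or TPM, a replicate block and leaving out each library.

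The members and the 9 pathway and 12 marker lists were chosen with earlier results of these data known, so no list is independent evidence of its direction. Named genes are the 10 members, up to 6 of each pathway list with the smallest p, and a short written list of receptors, ligands and regulators. Genes near the 2 neighbouring pairs were chosen after their values were seen, as was Amy2a5. Coordinates and promoter windows are RefSeq's for GRCm38.p6, counted from 1. Intervals cover the spread between libraries only.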

Additional observations from a re-analysis of the deposited data

How the results depend on the processing

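Of the 18 alternatives, those that could test them left Fgf21 (17 of 17), Inhbc, Inhbe and Fetub (18 of 18 each) past the threshold in the same direction, and Gdf15 passed in none. With 1 library left out, log2 fold changes ranged from 0.13 to 0.21 for Klb, from −0.46 to −0.27 for Fst and from −0.0603 to 0.0138 for Fgfr4. In the test against a 1.2-fold change Klb (0.16), Ahsg (−0.21) and Lect2 (−0.20) no longer passed, which left 1 of the 10 genes called lower, and Lect2 (−0.10) did not pass on log2(TPM + 1). Fgfr4, never past the threshold, was 0.0455 without TMM, 0.00224 with totals without the 20 most abundant genes, 0.0578 and 0.0609 with limma on FPKM at pseudocounts of 1 and 0.1 and 0.0914 on log2(TPM + 1). In these fits, in the same order, the median log2 fold change over all tested genes was 0.077, 0.0338, 0.0626, 0.0711 and 0.0956. In the main fit that median was −0.000618. The cause of the Fgfr4 shifts was not tested.

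Counts over all tested genes, 1961 higher and 1952 lower, were 3536 and 1203 without TMM, 1272 and 1240 with DESeq2, 239 and 414 against a 1.2-fold change, 3716 and 915 on log2(TPM + 1), 2868 and 1099 on log2(FPKM + 1), and 2856 and 1096 on log2(FPKM + 0.1). The numbers called among the 10 genes with 1 library left out were 3 to 4 higher and 3 to 4 lower. In those fits 16.7% to 17.2% of all tested genes were called higher and 16.4% to 17.1% lower. Of the named genes of the pathways, 58 in all, 931 of 1027 values kept their direction and call, 65 lost the call, 13 gained it and 18 changed sign. Creb3l3 became 0.0773 without TMM (adjusted p = 0.0102), 0.000907 and 0.000918 with median-of-ratios factors and DESeq2, 0.0341 with totals without the 20 most abundant genes, 0.00843 without a filter, 0.0733 and 0.0737 with limma on FPKM and 0.108 on TPM, and −0.0192 to 0.0182 with 1 library left out. Met was 0.0223 without TMM, 0.0228 and 0.0249 with limma on FPKM and 0.0555 on TPM, Fgfr3 was 0.00346 on TPM, and Insr ranged from −0.0129 to 0.0323 with 1 library left out.

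Same-numbered libraries did not deviate together (r from −0.03 to −0.01 over 3 pairs, and 0 of 6 libraries correlated best with their own number). Libraries of a group were so close that their deviations may be mostly counting noise, so this check cannot exclude a pairing. With the replicate block 4 of the 10 genes were higher and 3 lower, and 1929 and 1917 of all genes. Depth limits Fgf21, Fst and Gdf15, which had the fewest reads of the 10 genes.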

Other observations

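Other secreted liver proteins described as hormones changed in both directions, with 11 of 33 tested genes higher, 14 lower and a median log2 fold change of −0.01. Of all tested genes 19.1% were higher and 19.0% lower. Angptl8, an insulin-induced regulator of lipoprotein lipase, had counts of 840, 873 and 842 in sedentary and 2104, 2094 and 1948 in exercise libraries, and rose 2.31-fold. Orm2 and Lcn2, which are also acute phase genes, fell 17.3-fold and 55.3-fold. Orm1, of the same response, went from 2238 ± 22.5 to 1170 ± 2.72 FPKM (SD, n = 3), and fell. Fgl1, a hepatocyte-secreted fibrinogen-like protein, fell 2.42-fold, and Hamp, which encodes the iron hormone hepcidin, fell 1.66-fold. Outside the rule, and chosen after their values were seen, Manf, a secreted stress-response factor of the endoplasmic reticulum, went from 137 ± 2.25 to 241 ± 10.3 FPKM (SD, n = 3). Enho, which encodes adropin, went from 15.4 ± 0.854 to 7.55 ± 0.933 FPKM (SD, n = 3).

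The tested genes with a profile most like that of Fgf21 over the 6 libraries, by Euclidean distance in log2(TMM-scaled CPM + 0.5) centred on the sedentary mean, were Creld2, Fos, Syvn1, Plin4 and Zbtb16, at distances of 0.509 to 0.634. Creld2 and Syvn1 act in the endoplasmic reticulum and Fos is an immediate-early gene. Among the 10 genes Inhbc was nearest to Fgf21, at a distance of 1.63. Fgfr2 was the nearest of all tested genes to Inhbe (0.0635), followed by Them4, Cept1, Txlna and Zfp750. With 2 groups these distances mostly restate the log2 change on that scale, where the added 0.5 shrinks the change of low genes. For Fgf21 it was 1.48 with limma on quantile-normalized log2(CPM + 0.5), against 2.01 in edgeR. The 5 genes most like Fgf21 rose 2.33-fold to 3.40-fold, less than its 4.02-fold.

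The transcript length implied by the deposited values (count divided by FPKM and library total) was stable for 9 of the 10 genes, whose groups overlapped. For Gdf15 it was 1101, 1137 and 1168 bases in sedentary and 1222, 1212 and 1228 bases in exercise libraries (exact permutation p = 0.1, two-sided, the smallest possible, and 0.429 adjusted over the 10 genes). The ratio of 1.08 lies outside the central 95% of all tested genes, 0.969 to 1.04. It lies within that of the 1162 tested genes of similar count (means of 40 to 100), 0.949 to 1.09. RefSeq's promoter table gives Gdf15 a pair of start sites, and Fetub as well. The implied lengths of Fetub overlapped between the groups. The part of start sites in the Gdf15 values was not tested.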
